A study of Gorilla gorilla gorilla with 13 samples.

Results

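HOPX, FAM107A, MOXD1, TNC, PTPRZ1, PTN, LIFR, IL6ST, BMP7 and STAT3 are 10 genes known as markers of outer radial glia in the human cortex. They were picked by symbol, and each has a row among the 18137 genes of the table counted on the human build hg38. All 10 passed the filter on low counts, as did 16804 genes in all. They were followed through 4 cell populations of gorilla cerebral organoids, which are cultures of brain-like tissue grown from pluripotent stem cells.

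Radial glia are the stem cells of the developing cortex. Apical radial glia line the ventricle, whereas basal radial glia, which are also called outer radial glia, have lost that contact and divide deeper in the tissue. Outer radial glia are abundant in primates and are known to make extracellular matrix and growth factors of their own niche. PTN and TNC, a secreted growth factor and a matrix protein, both bind the receptor phosphatase PTPRZ1. LIFR and IL6ST form the receptor for leukemia inhibitory factor and signal through the transcription factor STAT3, a pathway known to support radial glia self-renewal. BMP7 is a secreted bone morphogenetic protein.

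All organoids derive from GC1, a single line of induced pluripotent stem cells made from a gorilla. They carry no edit or treatment that the labels name and were taken at week 8 of culture, give or take 3 days. Cells were sorted into 4 groups. These were 4 libraries of apical radial glia (aRG), 4 of basal radial glia (bRG), 3 of the basal intermediate progenitors that radial glia give rise to (bIP) and 2 of BCL11B+ neurons (N). Which other antigens were stained is not stated in the sources used here. RNA of 10000 sorted cells went into each of the 13 libraries, made by Smart-seq2, a full-length method without molecular identifiers. No label says whether the libraries of a group were separate cultures. Each p-value therefore rests on the spread among the libraries alone, and that spread may be technical. In such bulk samples, fewer cells of a type and less RNA per cell cannot be told apart.

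Levels below are CPM, counts per 1000000 counts of a library after TMM scaling, given in the order of library numbers. The 2 neuron libraries are library 1 and a second whose number matches no label, called the unnumbered library. Total counts were 5464721 to 12524938 per library. The labels were checked against markers. The summed level of 16 radial glia genes was 4838 to 6636 CPM in aRG, 4091 to 6368 in bRG, 562 to 719 in N and 445 to 646 in bIP. The defining gene of intermediate progenitors, EOMES, stood at 85.3 ± 49.1 CPM in bIP (mean ± SD, as in all CPM values with an error below), below both aRG (143 ± 84.4 CPM) and bRG (367 ± 92.9 CPM). The summed level of 14 intermediate progenitor genes was 774 to 1245 CPM in bIP, 1318 to 1677 in bRG, 709 to 1016 in aRG and 1005 to 1100 in N. The N range lies within the bIP range, so this sum does not separate bIP from N. The summed level of 13 neuronal genes did not overlap between them, at 6064 to 6172 CPM in bIP and 8912 to 9233 in N. Of 13 neuronal genes tested, 12 rose in bIP against aRG. bRG library 3 stood apart from the other 12, with a score of -67.7 on the second principal component of the 1000 most variable genes against -6.58 to 18.3. Of its counts in the table on the gorilla build gorGor6, 21.3% fell on the nuclear RNA MALAT1, against 6.35% to 10.8% in the others. For the markers, bRG against aRG is given with and without it. Most values of bIP or N against bRG, and the values of other genes, are given with it only.

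The first comparison asked whether the outer radial glia markers are higher in sorted basal radial glia than in apical radial glia. None of the 10 was called different by edgeR, where a call is a Benjamini-Hochberg adjusted p under 0.05, and 1.26% of all genes tested were called, 1.23% lower and 0.0298% higher in bRG. PTN, HOPX, MOXD1 and BMP7 had an unadjusted p under 0.05 with a lower value in bRG, 4 of 10, as had 6.19% of all genes tested. Of the 10 log2 fold changes 8 were negative, with a median of -0.40 against 0.04 over all genes tested. DESeq2 called 1 of the 10, PTN, as did edgeR with the library number as a block. Over all genes DESeq2 called 374 of 16804 and the block 312 of 17200.

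**Figure D1:**
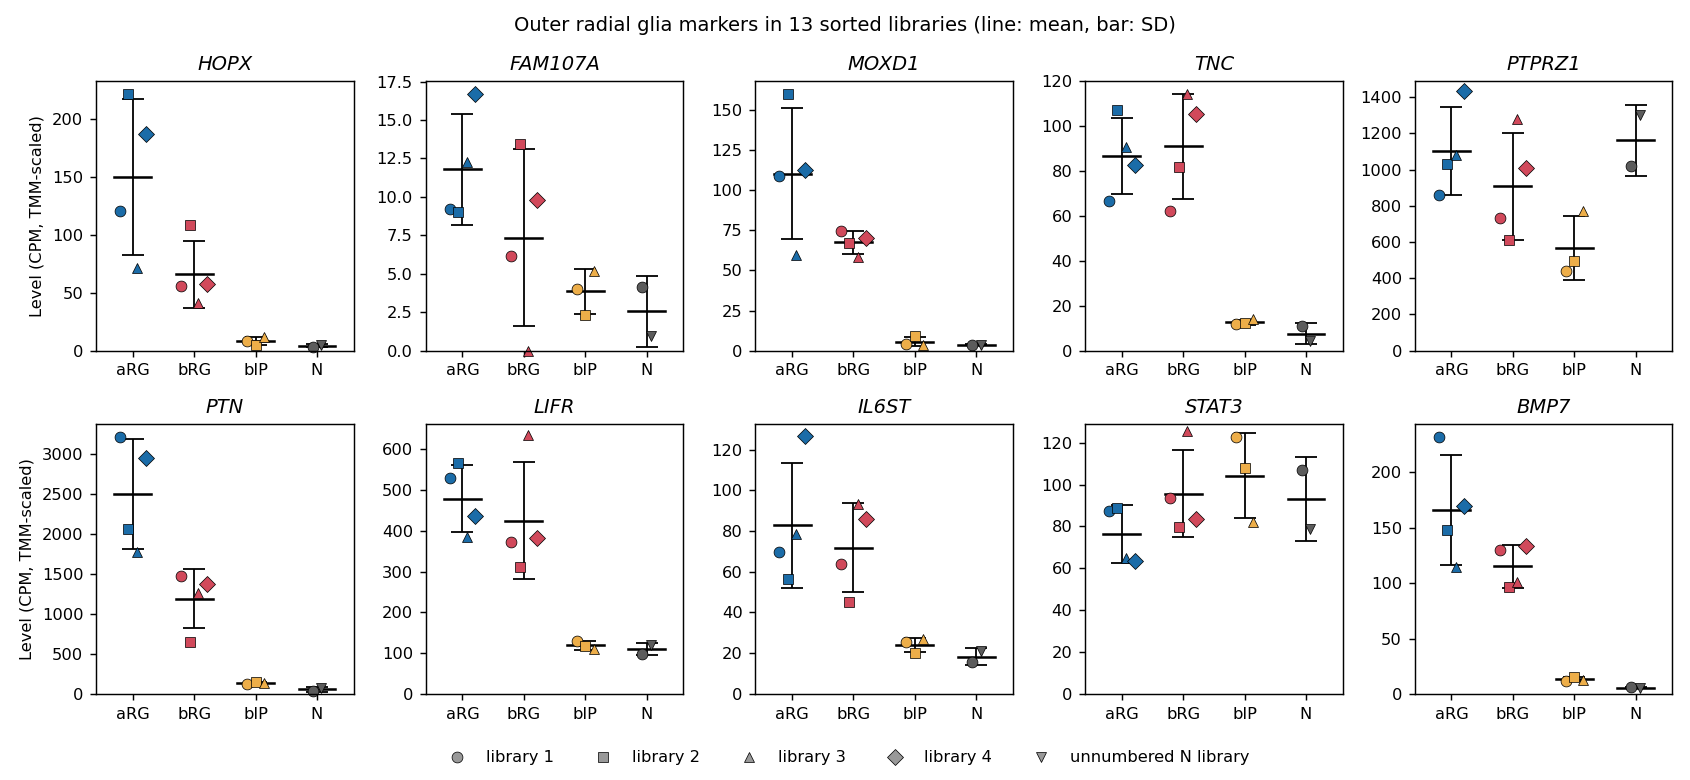
Level of each marker (y axis, CPM after TMM scaling, linear from 0) in the 13 libraries by sorted population (x axis), with the symbol giving the library number, the line the mean and the bar the SD. PTN is the gene whose bRG libraries (647 to 1476 CPM) all lie below its aRG libraries (1775 to 3209), FAM107A is at 0 in bRG library 3, and STAT3 and PTPRZ1 lack the drop from radial glia to neurons that 7 of the others show.

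PTN, the secreted ligand pleiotrophin, measured 3209, 2057, 1775 and 2943 CPM in the aRG libraries. In bRG it measured 1476, 647, 1266 and 1371 CPM. The populations did not overlap, and the lowest aRG library stood above the highest bRG library. It was the only one of the 10 markers with this separation, which 4% of all genes tested show in the same direction. The log2 fold change was -1.07 ± 0.299 (SE, 95% interval -1.70 to -0.44, edgeR adjusted p = 0.127), a 2.10-fold difference that did not pass. With the library number as a block, PTN was lower in bRG by edgeR (log2 change -1.08 ± 0.251 SE, adjusted p = 0.0425), and DESeq2 gave an adjusted p of 0.0277. Its adjusted p over all alternatives ran from 0.0277 to 0.39.

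PTN then fell steeply outside the radial glia. It measured 122, 146 and 137 CPM in bIP, and 34.3 and 78.6 CPM in N. Against bRG it was 8.81-fold lower in bIP (log2 change -3.14 ± 0.361 SE, edgeR adjusted p = 9.99e-06). In N it was 21.0-fold lower than in bRG (log2 change -4.395 ± 0.463 SE, edgeR adjusted p = 3.73e-06). PTN therefore had its levels in the order aRG, bRG, bIP and N, and the steps from aRG to bRG and from bIP to N (log2 change -1.26, edgeR adjusted p = 0.441) were not called, although neither pair of neighbours overlapped.

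BMP7, the other secreted ligand, measured 232, 148, 115 and 169.7 CPM in aRG and 130.1, 96.2, 101 and 133 CPM in bRG. The aRG and bRG libraries overlapped, and the log2 difference, -0.53 ± 0.231 (SE), did not pass (edgeR adjusted p = 0.471). In bIP it stood at 12.1, 15.2 and 12.5 CPM, and in N at 6.13 and 5.41 CPM. BMP7 fell in bIP against bRG by 3.12 ± 0.284 on the log2 scale (SE, edgeR adjusted p = 1.08e-06), and its F-test over the 4 populations gave the smallest p of the 10 markers (edgeR adjusted p = 1.55e-08). The step from bIP to N was a log2 change of -1.20 ± 0.330 (SE, edgeR adjusted p = 0.294), with every N library under every bIP library, and DESeq2 called it (adjusted p = 0.0449). An antisense gene, BMP7-AS1, has 103 counts in the gorGor6 table, and with the use of strand not stated some reads of either gene may have been counted for the other.

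TNC, the matrix glycoprotein tenascin C, had overlapping levels in both radial glia populations. It measured 66.5, 107, 90.6 and 82.6 CPM in aRG and 62.4, 81.8, 114 and 105 CPM in bRG. The log2 fold change was 0.07 with a 95% interval of -0.52 to 0.66 (edgeR adjusted p = 0.965), so differences either way lie within the interval. Its sign was negative in the gorGor6 table (-0.014) and without bRG library 3 (-0.058). In bIP TNC measured 11.8, 12.5 and 13.9 CPM, a fall of 2.83 on the log2 scale against bRG (SE 0.341, edgeR adjusted p = 1.53e-05). In N it measured 11.03 and 4.20 CPM, which overlapped neither radial glia population. Of 16804 genes tested, 2781 lay wholly lower in N than in bRG and 3650 wholly lower in N than in aRG.

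PTPRZ1, the receptor-type phosphatase that binds both PTN and TNC, had its lowest mean in bIP. It measured 860.1, 1029, 1080.0 and 1437 CPM in aRG, and 733, 611, 1279 and 1006 CPM in bRG. In bIP it measured 439, 494 and 771 CPM, and in N 1020.4 and 1301 CPM, levels within the range of the radial glia. The gene was lower in bIP than in aRG (log2 change -0.96 ± 0.294 SE, edgeR adjusted p = 0.0289). That call ended in the gorGor6 table (adjusted p = 0.0715), without aRG library 3 (0.0519), without aRG library 4 (0.0876), without bIP library 1 (0.155) and without bIP library 2 (0.133). In N against aRG the log2 fold change was 0.08, with a 95% interval of -0.61 to 0.76. In N against bIP it was 1.03 (95% interval 0.32 to 1.74, edgeR adjusted p = 0.47). The bIP and N libraries did not overlap, as for 17.2% of all genes tested in that direction. The mean levels ran from N (1161 ± 199 CPM) over aRG (1101 ± 243) and bRG (907 ± 298) to bIP (568 ± 178), and no neighbours in this order differed by edgeR.

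LIFR, the ligand-binding receptor chain for leukemia inhibitory factor, measured 528, 566, 386 and 437 CPM in aRG. In bRG it measured 373, 312, 634 and 382 CPM, where library 3 held the highest value of all 13. The log2 difference of -0.17 (95% interval -0.66 to 0.32, edgeR adjusted p = 0.876) became -0.43 without that library (edgeR adjusted p = 0.39). LIFR was at 130.04, 118 and 109.8 CPM in bIP and at 98.9 and 119.6 CPM in N. It fell 3.57-fold in bIP against bRG (log2 change -1.84 ± 0.266 SE, edgeR adjusted p = 9.43e-05). Without bRG library 3 that log2 change was -1.58 (edgeR adjusted p = 3.62e-05). The N and bIP libraries overlapped. The use of strand in counting is not stated, and LIFR-AS1, an antisense gene, has 2969 counts in the gorGor6 table, so some reads of either gene may have been counted for the other.

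IL6ST, the shared signalling chain gp130 of this receptor family, measured 69.7, 56.4, 78.7 and 127 CPM in aRG and 63.6, 45.0, 93.1 and 85.7 CPM in bRG. The 2 populations overlapped (log2 fold change -0.21, 95% interval -0.81 to 0.40, edgeR adjusted p = 0.877). Without aRG library 4, which held the highest value, the log2 fold change turned to 0.086. IL6ST measured 25.5, 20.3 and 26.8 CPM in bIP and 15.4 and 21.2 CPM in N. It fell 2.97-fold in bIP against bRG (log2 change -1.57 ± 0.326 SE, edgeR adjusted p = 0.00229) and 3.92-fold in N against bRG (edgeR adjusted p = 0.00136). Both receptor chains thus fell on the way out of the radial glia.

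STAT3, the transcription factor that acts below LIFR and IL6ST, was not called different among the 4 populations by edgeR's F-test (adjusted p = 0.514). It measured 87.6, 88.8, 65.0 and 63.4 CPM in aRG and 93.8, 79.9, 126 and 83.6 CPM in bRG. In bIP it was at 123, 108 and 82.2 CPM, and in N at 107 and 78.8 CPM. Every pair of populations overlapped, no comparison of STAT3 was called, and its largest log2 fold change was 0.45 in bIP against aRG (95% interval -0.06 to 0.97, edgeR adjusted p = 0.248). The highest value of the 13 was again that of bRG library 3.

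HOPX, an atypical homeodomain cofactor and a much used marker of outer radial glia, was not called higher in bRG. It measured 120.1, 222, 70.9 and 187 CPM in aRG and 56.1, 108, 41.3 and 57.7 CPM in bRG. The 2 populations overlapped through bRG library 2 and aRG library 3, although in each of the 4 pairs of same-numbered libraries the bRG value was the lower, at 0.309 to 0.582 of the aRG value. The log2 fold change was -1.19 ± 0.365 (SE, 95% interval -1.96 to -0.42, edgeR adjusted p = 0.196), which is the largest of the 10 in size. It was not called by edgeR under any alternative or by DESeq2, with adjusted p from 0.0586 to 0.666.

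Outside the radial glia HOPX fell to 8.66, 5.20 and 12.2 CPM in bIP and stood at 3.43 and 5.22 CPM in N. Against bRG the fall in bIP was 7.54-fold (log2 change -2.91 ± 0.442 SE, edgeR adjusted p = 0.000144) and in N 15.1-fold (edgeR adjusted p = 7.43e-05). Against aRG it was 17.2-fold in bIP (edgeR adjusted p = 5.23e-06). The bIP and N libraries overlapped.

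MOXD1, a monooxygenase-like protein with no settled role in radial glia, measured 109, 160.1, 59.8 and 113 CPM in aRG and 74.5, 67.2, 58.1 and 70.1 CPM in bRG. Its bRG libraries were close together (SD 6.93) and overlapped the lowest aRG library. The log2 difference was -0.71 ± 0.304 (SE, edgeR adjusted p = 0.458). MOXD1 measured 4.33, 9.01 and 3.51 CPM in bIP and 3.55 and 3.82 CPM in N. The fall from bRG to bIP was 12.0-fold, the largest of the 10 markers by edgeR in that comparison (log2 change -3.58 ± 0.387 SE, edgeR adjusted p = 5.22e-06).

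FAM107A, an actin-associated protein also called DRR1, was scarce in these libraries. It measured 9.21, 8.99, 12.3 and 16.7 CPM in aRG and 6.15, 13.5, 0 and 9.80 CPM in bRG. No read of it was counted in bRG library 3 in either table. At that depth the limit that a count of 0 allows, taken as 3 counts, is 0.354 CPM, and it covers counting error only. In bIP it measured 4.03, 2.33 and 5.21 CPM, and in N 4.17 and 0.933 CPM. In the main fit FAM107A was not called in any of the 6 comparisons. Its F-test over the 4 populations gave an edgeR adjusted p of 0.295, and of 0.0127 without bRG library 3. In fits of only the 2 populations compared, FAM107A was called lower in bIP against aRG (log2 fold change -1.61, edgeR adjusted p = 0.0116) and in N against aRG (-2.26, 0.017). Without bRG library 3 it was called lower in bIP against aRG (log2 fold change -1.61, edgeR adjusted p = 0.0233), in N against aRG (-2.23, 0.0104) and in N against bRG (-1.97, 0.0255). In bRG against aRG it then stood at -0.26 (edgeR adjusted p = 0.882).

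**Figure D2:**
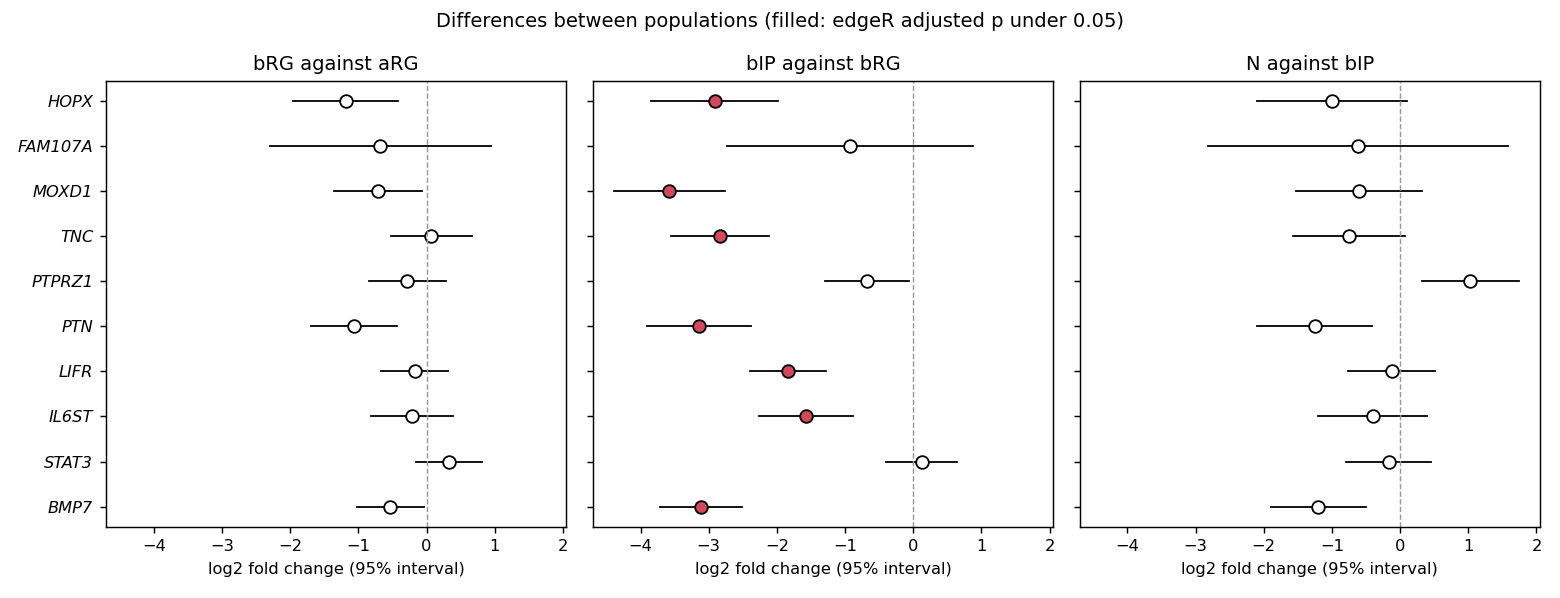
Log2 fold change of each marker (x axis, with its 95% interval as a line) in bRG against aRG, bIP against bRG and N against bIP, with filled points for an edgeR adjusted p under 0.05. No point is filled in the first and last panel and 7 of 10 are filled in the middle one, so in this fit without the library number as a block, only the step from bRG to bIP of the 3 has called markers, while the block adds PTN in bRG against aRG.

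The steps out of the radial glia held most of the called differences. HOPX, MOXD1, TNC, PTN, LIFR, IL6ST and BMP7 were called lower in bIP against bRG, 7 of 10, where 16.7% of all genes tested were called and 8.44% were called lower. The same 7 were called in N against bRG, where 19.8% of all genes were called and 9.13% were called lower, and in N against aRG, where 19.8% were called and 9.37% were called lower. In bIP against aRG 8 of 10 were called lower, these 7 and PTPRZ1, where 18.4% of all genes were called and 9.98% were called lower. Over the 4 populations edgeR's F-test called the same 7, and 22.5% of all genes. It also called PTPRZ1 with the library number as a block (edgeR adjusted p = 0.0443), without bRG library 3 (0.0198) and without bIP library 3 (0.0476), against 0.0799 in the main fit. DESeq2's likelihood-ratio test over the 4 populations called PTPRZ1 too (adjusted p = 0.0378). FAM107A was called by the F-test without bRG library 3 (edgeR adjusted p = 0.0127), against 0.295 with it. The comparisons share libraries, so these counts are not independent of each other. None of the 10 was called in N against bIP by edgeR, where 0.113% of all genes were called. There PTPRZ1, PTN and BMP7 had an unadjusted p under 0.05, as had 6.64% of all genes tested, and DESeq2 called BMP7. The N libraries lay wholly below the bIP libraries for 3 markers, PTN, TNC and BMP7, as for 13.8% of all genes tested. Among the 7, the folds from bRG to bIP ran from 2.97 (IL6ST) to 12.0 (MOXD1).

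Lists of other genes moved in the same step from bRG to bIP. Of 16 radial glia genes 14 fell (median -3.29 on the log2 scale). Of 30 G2/M genes, which mark dividing cells, 25 fell, and their summed level was 1582 to 2349 CPM in bRG and 277 to 327 CPM in bIP. Of 13 neuronal genes 11 rose, and their summed level was 1389 to 2412 CPM in bRG and 6064 to 6172 CPM in bIP. The part of these shifts in the lower levels of the 7 markers was not tested.

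**Figure D3:**
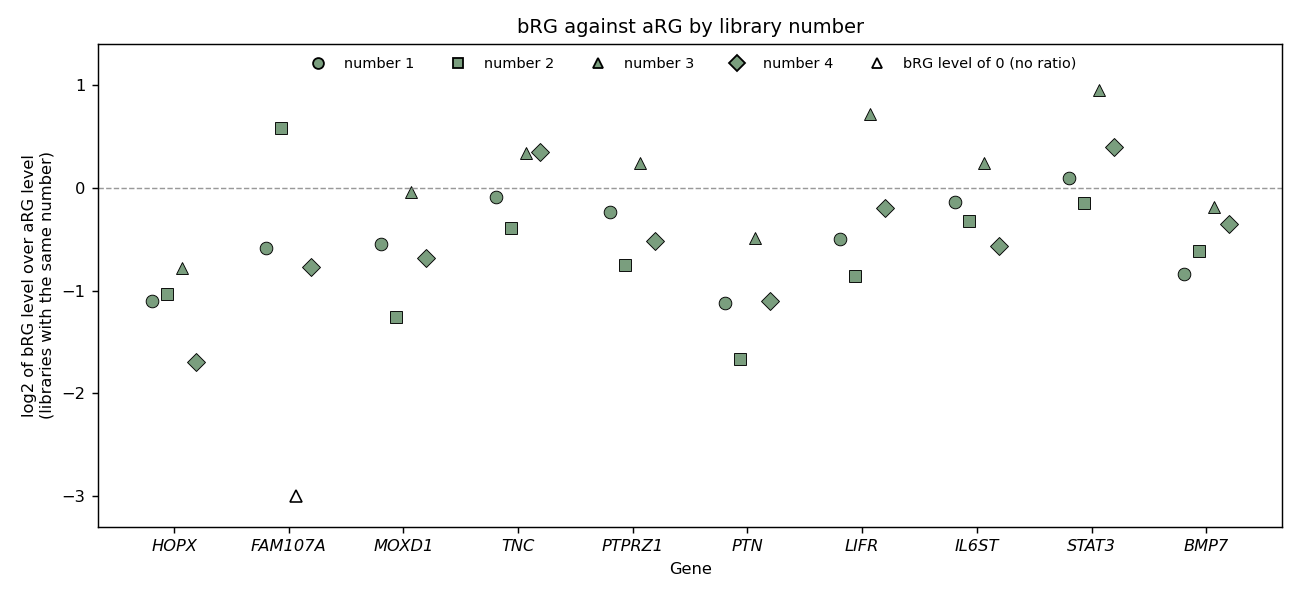
Log2 of the bRG level over the aRG level in libraries that carry the same number (y axis) for each marker (x axis), with the symbol giving the number and an open symbol at the foot where the bRG level is 0. HOPX, MOXD1, PTN and BMP7 lie below 0 in all 4 pairs, and number 3 gives the highest ratio of 8 of the 10 markers.

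Deviations from the population means moved together in libraries with the same number, and also in some with different numbers. Those with the same number were set side by side as pairs. HOPX, MOXD1, PTN and BMP7 had the lower value in bRG in 4 of 4 such pairs, as had 12.1% of all genes tested. The 2 counts rest on the same libraries. PTN stood at 0.460, 0.315, 0.713 and 0.466 of its aRG level. MOXD1 was at 0.971 in the pair numbered 3 and at 0.420 to 0.684 in the others. PTPRZ1, LIFR, IL6ST and FAM107A were lower in 3 of 4 pairs, TNC in 2 and STAT3 in 1. The pair numbered 3 holds bRG library 3, and in it LIFR stood at 1.64 and STAT3 at 1.93 of the aRG level, against 0.550 to 0.874 and 0.900 to 1.32 in the other pairs. Without bRG library 3 the log2 fold change in bRG against aRG was -1.02 for HOPX, -0.64 for MOXD1, -1.10 for PTN and -0.47 for BMP7. It was -0.49 for PTPRZ1, -0.36 for IL6ST and 0.17 for STAT3. None of the 10 was then called, with edgeR adjusted p from 0.122 to 0.964.

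Other signals moved with the comparison of bRG and aRG. Of the 30 G2/M genes 29 fell in bRG (median log2 fold change -2.52), and their summed level was 1582 to 2349 CPM in bRG and 6037 to 11949 CPM in aRG. Of 14 choroid plexus and cortical hem genes 1 fell, TTR (log2 fold change -2.85), and that call ended without aRG library 3 (edgeR adjusted p = 0.0627) or bRG library 4 (0.078). DESeq2 called 2 of them lower. The summed level of that list was 347 to 1470.2 CPM in bRG and 1719 to 7997 CPM in aRG, and none of its genes was at 0 in all libraries of either. TTR alone measured 170 to 1177 CPM in bRG and 1541 to 7626 in aRG, so most of the sum in aRG is TTR. Of the 14 log2 fold changes 9 were negative, with a median of -0.34. Of 12 mesenchyme genes 1 fell, COL1A1 (-2.28), and the summed level was 208 to 395 CPM in bRG against 297 to 569.8 CPM in aRG, while DESeq2 called 4 of these genes lower. None of 11 astrocyte and oligodendrocyte genes tested was called by edgeR or DESeq2, and none had an unadjusted p under 0.05. No intermediate progenitor gene of 14 was called by edgeR or DESeq2, while 5 had an unadjusted p under 0.05, all higher in bRG, and edgeR with the library number as a block called 1. No radial glia gene of 16 was called by edgeR, while 3 had an unadjusted p under 0.05, all lower in bRG, namely FABP7 (log2 fold change -1.12), VIM (-0.91) and DBI (-0.88). DESeq2 called 2 radial glia genes lower and the block 1. No neuronal gene of 13 was called by edgeR or DESeq2, while MAP2 (log2 fold change 0.53), RBFOX3 (0.87) and NEUROD6 (0.56) had an unadjusted p under 0.05. These genes, apart from NEUROD6, fall outside the rule for named genes and were picked after their values were seen. The part of these signals in the values of HOPX, PTN, MOXD1 and BMP7 was not tested.

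Further genes known from outer radial glia were read from a list of 19 in the table. None was called in bRG against aRG by edgeR, 2 had an unadjusted p under 0.05, both lower in bRG, DESeq2 called 1 lower, and edgeR with the library number as a block called 2 lower. The median log2 fold change was -0.20, and 17 of 19 were negative. Against bRG, 13 of the 19 fell in bIP and 1 rose, with a median of -2.62. SLC1A3, which takes up glutamate in glia, measured 1047 ± 231 CPM in aRG, 925 ± 347 in bRG and 15.0 ± 3.21 in bIP, and fell by 5.94 on the log2 scale in bIP against bRG. GLI3, a transcription factor of hedgehog signalling, measured 606 ± 35.4, 597 ± 150.4 and 25.5 ± 4.09 CPM (-4.54). SLC1A3 and GLI3 are also among the 16 radial glia genes used above to check the labels.

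Genes described for ventricular and truncated radial glia, the apical counterpart, were read in the same way. Of 12 tested none was called in bRG against aRG by edgeR or DESeq2, and at an unadjusted p under 0.05 there was 1 in each direction. HMGA2, a chromatin protein of early progenitors, measured 338 ± 97.1 CPM in aRG and 259 ± 113 in bRG. PROM1, an apical membrane protein, measured 145 ± 33.3 and 151 ± 87.9 CPM. PALLD, an actin scaffold protein, measured 184 ± 14.1 and 158 ± 29.8 CPM. All 3 fell in bIP against bRG, by 3.81, 4.17 and 1.55 on the log2 scale.

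**Figure D4:**
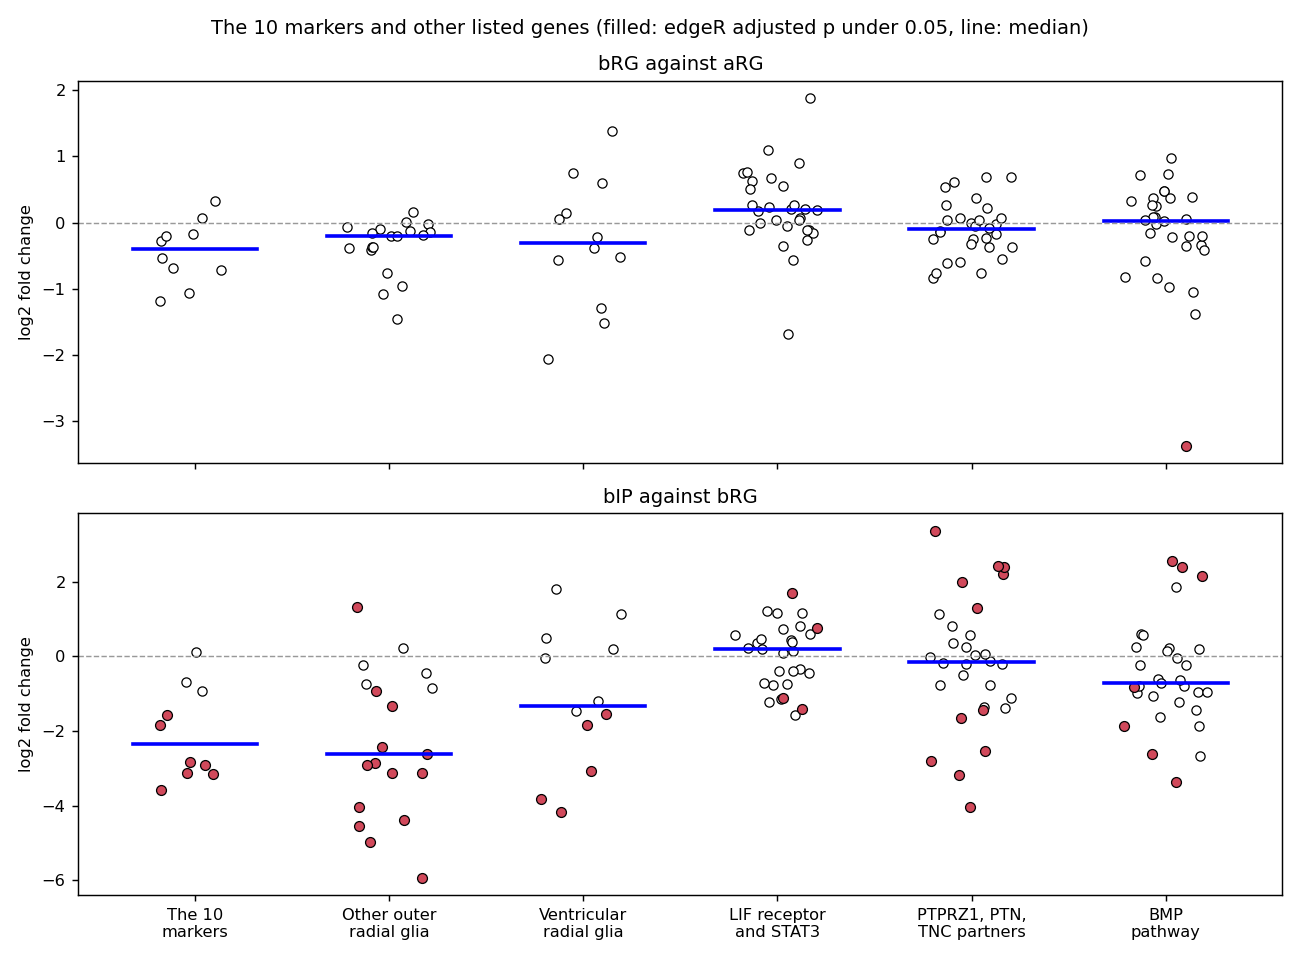
Log2 fold change (y axis) of the 10 markers and of the genes of 5 lists (x axis, 1 point per gene, spread sideways at random) in bRG against aRG and bIP against bRG, with filled points for an edgeR adjusted p under 0.05 and the line at the median. In bRG against aRG the single filled point is ID1 of the BMP pathway, while in bIP against bRG the markers and the other outer radial glia genes have medians of -2.33 and -2.62.

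Around the ligand and receptor group of PTN, TNC and PTPRZ1, 30 partner genes were tested. None was called in bRG against aRG by edgeR or DESeq2, 4 had an unadjusted p under 0.05, all lower in bRG, and edgeR with the library number as a block called 1 lower. In bIP against bRG 6 rose and 6 fell. MDK, the midkine ligand and closest relative of PTN, measured 881 ± 75.2 CPM in aRG, 687 ± 171 in bRG, 97.5 ± 15.2 in bIP and 119 ± 44.6 in N. It fell by 2.82 on the log2 scale in bIP against bRG. BCAN, the proteoglycan brevican, fell by 4.02 in the same comparison, from 186 ± 55.5 to 11.5 ± 2.67 CPM. NRCAM, a neuronal adhesion molecule, rose from 71.6 ± 4.52 to 332 ± 135 CPM (log2 fold change 2.21) and measured 555 ± 178 CPM in N. PTN and MDK thus fell with TNC and BCAN in bIP against bRG, whereas NRCAM rose.

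In the LIF receptor and STAT3 pathway 29 genes were tested, and none was called in bRG against aRG by edgeR. At an unadjusted p under 0.05, 3 were higher and 1 lower in bRG, and DESeq2 called 1 lower. In bIP against bRG 2 rose and 2 fell, with a median of 0.19 against -0.09 over all genes tested. CNTFR, the receptor chain for ciliary neurotrophic factor that joins LIFR and IL6ST, fell from 60.5 ± 22.7 to 22.7 ± 5.44 CPM (log2 fold change -1.41), the same direction as its partner chains. MYC, a growth-promoting transcription factor, rose from 6.71 ± 2.83 to 21.9 ± 6.04 CPM (log2 change 1.71). SOCS7, a member of the suppressor of cytokine signalling family, measured 141 ± 12.9 CPM in bRG and 335 ± 78.6 in N and rose by 1.24 on the log2 scale in N against bRG, a call that ended without N library 1 (edgeR adjusted p = 0.0507). With the library number as a block, without the unnumbered neuron library, the calls of this list in N against bRG went from 5 higher and 1 lower to 2 and 0, and in N against aRG from 6 and 1 to 1 and 1.

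In the BMP pathway 31 genes besides BMP7 were tested, and 1 was called in bRG against aRG. ID1, a helix-loop-helix inhibitor and a direct target of BMP signalling, measured 20.1 ± 2.30 CPM in aRG and 1.99 ± 1.72 in bRG. The aRG libraries lay between 17.0 and 22.4 CPM and the bRG libraries between 0.118 and 4.27, and ID1 fell by 3.37 on the log2 scale (edgeR adjusted p = 0.00973). In bIP it measured 11.5 ± 6.46 CPM and rose against bRG (2.56), a call lost when bIP library 2 was left out (edgeR adjusted p = 0.091) and in a fit of these 2 populations alone (0.0582). In bIP against bRG 3 of the 31 rose and 4 fell. ID4, a related inhibitor, measured 347 ± 77.1 CPM in bRG and 56.7 ± 24.9 in bIP (-2.62). The receptor BMPR1B measured 57.3 ± 22.5 and 5.57 ± 2.49 CPM (-3.37). ID2 went the other way, from 38.4 ± 17.7 to 203 ± 110.0 CPM (2.40). With the ligand BMP7, a receptor and ID4 lower and ID1 and ID2 higher in bIP than in bRG, the genes of this pathway did not share 1 direction.

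The genes whose levels were most like each marker were found by Pearson's r of log2 CPM over the 13 libraries, among 9181 others whose mean log2 CPM reached 4. The libraries form 2 clusters, radial glia against bIP and N, so a high r can come from that split alone, and r over the 8 radial glia libraries is given beside it. For MOXD1 they were PLAT (0.99 and 0.94), NOTCH3 (0.99 and 0.92) and CLSPN (0.99 and 0.77). For BMP7 they were LAMB2 (0.99 and 0.75), DOCK1 (0.99 and 0.78) and MCM3 (0.99 and 0.72). For PTN they were BARD1 (0.98 and 0.79), FUT8 (0.98 and 0.92) and TJP1 (0.98 and 0.75). HOPX was nearest to FBN2 (0.97 and 0.95), ARHGEF26 (0.97 and 0.73) and SCN1A (0.96 and 0.81). LIFR was nearest to RFX4 (0.99 and 0.90), WSCD1 (0.98 and 0.78) and SOX1 (0.98 and 0.95). IL6ST was nearest to CRTAP (0.99 and 0.97), BEND4 (0.98 and 0.89) and TMEM123 (0.98 and 0.96).

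TNC was nearest to ACSS1 (0.98 and -0.051), SLC6A16 (0.98 and 0.17) and TFAP2C (0.98 and 0.58), and its r within the radial glia was thus close to 0 for ACSS1. PTPRZ1 was nearest to TPGS2 (0.91 and 0.75) and AHCYL2 (0.90 and 0.69). FAM107A was nearest to MIF4GD (0.93 and 0.96), TACO1 (0.92 and 0.94) and RBBP8 (0.90 and 0.92). STAT3 was nearest to ISY1 (0.94 and 0.95), HTT (0.91 and 0.95) and DDX18 (0.90 and 0.94). FAM107A and STAT3 have their lowest and highest value in bRG library 3, and the 8 radial glia libraries share their depth and this library with every gene compared.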

How the data were processed

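RNA was counted in 13 libraries of 4 sorted populations. The authors deposited 2 tables of raw counts per gene symbol, not normalized: 18137 genes on hg38, used as the main table, and 60583 named genes on gorGor6, a build known from the name of the table only. STAR and hg38 are named, with no role or version, per the submitters' processing notes. How reads were assigned to genes, with which annotation and whether by strand, is not given in the sources used here. Genes with antisense or near-identical partners are therefore uncertain. A row with a blank name held 0.00351% to 0.00768% of gorGor6 counts and was left out. Total counts were 11835004 to 26173260 in that table.

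Counts were tested by the quasi-likelihood F-test of edgeR 4.0.16 after TMM scaling and a low-count filter (filterByExpr, minimum count 10) in R 4.3.3, in 1 fit of 13 libraries with a mean per population. A p was adjusted by Benjamini and Hochberg over all 16804 genes tested and called under 0.05. Standard errors come from the fold change and its F, and 95% intervals from the degrees of freedom of the fit. The test was run on simulated data first. Alternatives were DESeq2 1.42.0, its size factors, no filter, the gorGor6 table, a replicate block, a fit limited to the pair of populations, and leaving out each library in turn. The markers and lists were chosen with earlier results of these data known. From each list the text names the 3 genes with the smallest F-test p and up to 5 called in bRG against aRG, and for each marker the 3 genes most like it. Of these, 2 genes are not reported here. Marker genes of other cell types are given mainly as list sums. BCAN, SLC1A3, GLI3, PROM1 and MSX1 stand in 2 lists each.

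Same-numbered libraries of different populations deviated together from their population means (correlation of 0.200 to 0.613 over 13 pairs, each above 0.1). The 38 pairs with different numbers ran from -0.615 to 0.455. The 2 ranges overlap, so the values do not show that the number itself pairs the libraries. Different-numbered pairs within numbers 1 and 2, or within numbers 3 and 4, were all positive (for example 0.403 for aRG library 2 and bRG library 1). Pairs across these sets were negative, except aRG library 1 and bRG library 3 (0.054). What the libraries of a set share was not tested. The numbers were taken as pairs in the block and the side-by-side ratios only, and the main fit has no block. The numbers come from the sample labels, which do not say that a shared number marks a shared batch, donor or day. The unnumbered neuron library was left out of the block. No 2 libraries of a population were alike enough to be a repeat deposit (chi-square over its degrees of freedom, 10.6 to 92.4).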

Additional observations from a re-analysis of the deposited data

How the results depend on the processing

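The number of markers called in bRG against aRG was 0 and became 1 with DESeq2 and 1 with the replicate block (PTN in both), and stayed 0 when any library was left out. In N against bIP it was 0, became 1 with DESeq2 (BMP7) and stayed 0 when any library was left out. The counts in bIP against aRG (8), bIP against bRG (7), N against bRG (7), N against aRG (7) and over the 4 populations (7) stayed within 1.5 times in every alternative, with 7 to 9, 7 to 7, 7 to 8, 7 to 8 and 7 to 9 markers when a library was left out. In the F-test over the 4 populations the block also called PTPRZ1 (edgeR adjusted p = 0.0443). Apart from PTN in bRG against aRG, the block changed no other call of a marker. Of 1140 alternative values of the markers, 1111 kept their direction and their side of the threshold, 8 became called, 5 lost a call and 16 turned sign. Every one of the 16 belongs to a difference that was not called. TNC in bRG against aRG was -0.014 in the gorGor6 table and ranged from -0.058 to 0.21 when a library was left out. With the replicate block FAM107A and TNC in N against bIP were 0.067 and 0.11. STAT3 in N against bRG was 0.0029 in the gorGor6 table. Leaving out a library gave ranges across 0 for IL6ST in bRG against aRG (-0.36 to 0.086), STAT3 in bIP against bRG (-0.0084 to 0.28), FAM107A (-2.03 to 0.11), LIFR (-0.26 to 0.010) and STAT3 (-0.40 to 0.045) in N against bIP, STAT3 in N against bRG (-0.275 to 0.17) and PTPRZ1 in N against aRG (-0.10 to 0.24). The cause was not tested. Over all genes, calls in bRG against aRG were 211, with 374 by DESeq2, 312 with the block and 131 without aRG library 4. Calls in N against bIP were 19, with 169 by DESeq2, 1 with the block, 48 in a fit of the 2 populations and 0 to 70 when a library was left out. In N against bRG they were 3321, with 1822 with the block, 2027 in a fit of the 2 populations, and 1956 without N library 1 and 1698 without the unnumbered one. In N against aRG they were 3320, with 1988 with the block, 1979 without N library 1 and 1903 without the unnumbered one. In the gorGor6 table the median of all genes in N against bRG was -0.37, against -0.09. FAM107A has 815 counts over all libraries, and its SE in bRG against aRG was 0.769 with bRG library 3 and 0.465 without it.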

Other observations

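The 2 deposited tables count the markers unequally. Over all genes the gorGor6 table holds 2.11 times the counts of the hg38 table, and IL6ST holds 1.995 times, HOPX 1.84 and STAT3 1.795. PTN and LIFR hold 1.02 and 1.01 times, the least of the markers. Every marker lies below the value of all genes, and each has a lower mean CPM in aRG in the gorGor6 table. There PTN measured 1218 CPM against 2496 in the hg38 table, and HOPX 133 against 150. PTN has 123716 counts in the hg38 table and 126294 in the other, and LIFR 34822 and 35081. LIFR-AS1, named as antisense to LIFR, has a row of 2969 counts in the gorGor6 table only, and IL6STP1, a pseudogene of IL6ST, is at 0 there. Within the gorGor6 table the log2 fold change of PTN in bRG against aRG was -1.14 (edgeR adjusted p = 0.124), close to the -1.07 of the hg38 table.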
